A study of Mus musculus with 18 samples.

Results

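The genes described here write, copy or erase DNA methylation. They are the methyltransferase genes Dnmt1, Dnmt3a and Dnmt3b, the cofactor genes Dnmt3l and Uhrf1, the dioxygenase genes Tet1, Tet2 and Tet3, and the glycosylase gene Tdg. They were taken from the deposited count table by an exact match of the gene symbol, and make up 9 of its 45706 genes. All 9 passed the filter on low counts that left 16619 genes to test, and the lowest count of any of them in any library was 29, for Tet3.

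Methylation of cytosine in CpG dinucleotides is placed on unmethylated DNA by Dnmt3a and Dnmt3b, which work together with Dnmt3l, a family member without catalytic activity of its own. After replication, Uhrf1 binds hemimethylated CpG and brings in Dnmt1, which copies the mark onto the new strand. Tet enzymes oxidize methylcytosine, and Tdg excises the later oxidation products, so that base excision repair can restore an unmodified cytosine. Naive pluripotent cells kept in kinase inhibitors have little methylation, and the epiblast state that follows gains it.

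Mouse induced pluripotent stem cells (iPSCs) of 3 lines were sequenced at 0 h and at 24 h of induction into epiblast-like cells (EpiLCs), which gave 6 groups of 3 libraries. The lines were Hmga2 wild type (wt), Hmga2 knockout (KO) clone #1 and Hmga2 KO clone #2, and Hmga2 is a chromatin architectural protein. At 0 h every line was on inactivated fibroblast feeders in serum with leukaemia inhibitory factor and inhibitors of MEK and GSK3. For the 24 h groups, cells of the same line had been replated on a basement membrane matrix in a medium with N2 and B27 supplements, Activin A and bFGF, so feeders and medium changed together with time. The wt libraries came from 1 clone and each KO line is 1 clone, so that genotype and clone cannot be told apart. In the main fit, p-values rest on the spread between the 3 libraries of a group, estimated jointly over all 6 groups. They do not measure a spread between clones. The study describes the 3 libraries of a group as independent biological replicates. Both KO clones were compared with the same wt libraries, and the results of these comparisons are not independent of each other.

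Total counts were between 3466436 and 23872837 per library, so that 3 counts, taken as the smallest level that could be seen, were between 0.116 and 0.983 CPM (edgeR's counts-per-million unit, with each library total scaled by its TMM factor). Such limits cover counting error only. The labelled states were checked against marker genes. From 0 h to 24 h in wt cells, 4 of 5 naive markers fell and 4 of 4 EpiLC markers rose, and the same numbers were found in both KO lines. Hmga2 itself was at 17.4, 13.3 and 22.3 CPM in wt cells at 0 h, 10.2, 4.59 and 1.75 CPM in KO clone #1 and 4.10, 1.84 and 8.24 CPM in the libraries labelled KO clone #2. At 24 h it was at 5.86, 5.51 and 5.93 CPM in wt cells and at 3.67, 2.25 and 0.870 CPM in KO clone #1. The log2 fold change against wt was -1.90 for the libraries labelled KO clone #2 at 0 h (edgeR, adjusted p = 0.023), and for KO clone #1 it was -1.71 at 0 h and -1.36 at 24 h, which did not pass the test (adjusted p = 0.124 and 0.22). The libraries labelled KO clone #2 had 10.4, 3.02 and 3.47 CPM of Hmga2 at 24 h and overlapped wt cells (log2 fold change -0.039, adjusted p = 0.967), so that Hmga2 RNA did not check their label at that time. Fold changes also moved with the length and GC content of the transcript over all genes tested. Genes whose longest transcript is over 7 kb had a median log2 fold change of -0.72 for 24 h against 0 h in wt cells, -0.75 in KO clone #1 and 0.94 for the libraries labelled KO clone #2 against wt cells at 24 h. The 3 Tet genes and Dnmt3a are in that class. For the 9 genes, values with offsets that remove the relation to transcript length and GC content are therefore given where they change a call or move a called log2 fold change by over 1.5 times. Such offsets were not applied to the values of other genes given here.

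From 0 h to 24 h in wt cells, the genes of de novo methylation rose by 7.34-fold to 16.8-fold, the Tet genes fell, and the maintenance pair Dnmt1 and Uhrf1 did not pass the test. Called genes are those with a Benjamini-Hochberg adjusted p under 0.05 in edgeR's quasi-likelihood test over all genes. By that rule 7 of 9 genes were called in wt cells, against 50.7% of all genes tested. Dnmt3a, Dnmt3b, Dnmt3l and Tdg were higher at 24 h (4 of 9, against 26% of all genes), and Tet1, Tet2 and Tet3 were lower (3 of 9, against 24.7%). The same 4 genes rose in KO clone #1 and the same 3 fell there, with 7 of 9 called against 40.8% of all genes, 20.1% higher and 20.6% lower. In the libraries labelled KO clone #2, Uhrf1 joined the 4 that rose, and of the Tet genes Tet2 alone was called lower. That made 6 of 9 called, against 26% of all genes tested, with 5 higher against 12.7% and 1 lower against 13.3%. Fibroblast markers fell over the same time, 6 of 8 in wt cells and in KO clone #1, where 1 rose, and 3 of 8 in the libraries labelled KO clone #2, where 0 rose. Their sums went from 109.9 to 389.7 CPM at 0 h to 19.0 to 34.5 CPM at 24 h in wt cells, from 183 to 514 CPM to 38.7 to 51.8 CPM in KO clone #1 and from 331 to 897 CPM to 70.9 to 219 CPM in the libraries labelled KO clone #2. The part of feeder cells in the changes over time was not tested.

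**Figure D1:**
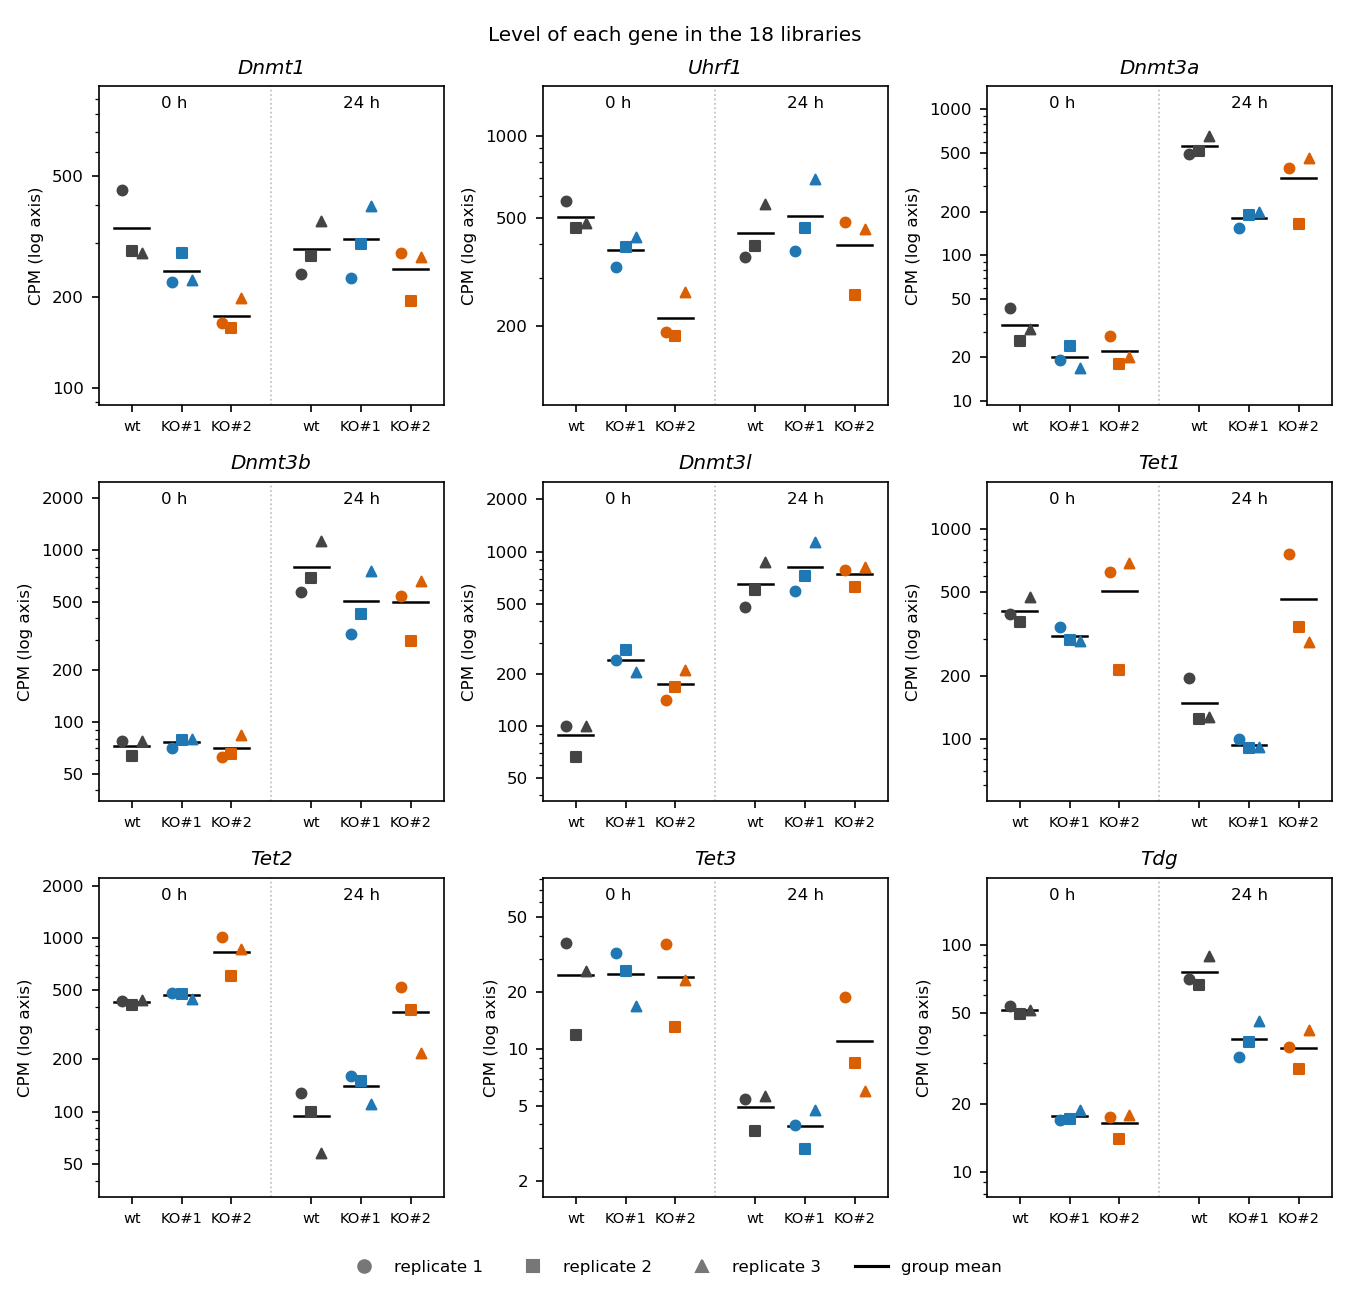
Level of the 9 genes in each library, as CPM on a log axis, by line and time. Points are replicates 1 to 3 and lines are group means. Dnmt3a in wt cells lies between 25.8 and 43.6 CPM at 0 h and between 498 and 658 CPM at 24 h, and Tdg of wt cells lies above both KO lines at each time.

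**Figure D2:**
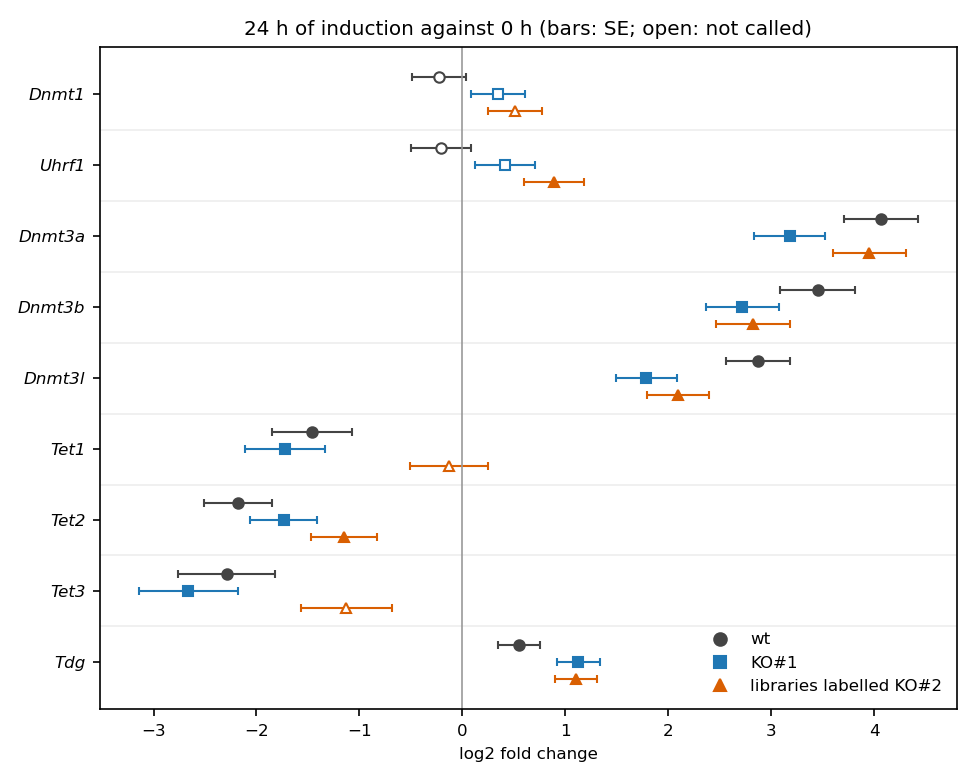
Log2 fold change of each gene for 24 h against 0 h in each line, with its standard error (SE). Filled symbols passed edgeR's test at an adjusted p under 0.05 and open ones did not. Dnmt3a, Dnmt3b and Dnmt3l lie between 1.79 and 4.07 in the 3 lines, and the Tet genes lie between -2.66 and -0.13.

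Fewer of the genes differed between the lines. At 0 h, KO clone #1 had more Dnmt3l and less Tdg than wt cells, which is 2 of 9 called against 6.67% of all genes, with 1 higher against 3.99% and 1 lower against 2.68%. Both differences were shared by the libraries labelled KO clone #2 at 0 h, which also had less Dnmt1 and Uhrf1 and more Tet2. That is 5 of 9 against 38.1%, with 2 higher against 21.5% and 3 lower against 16.6%. At 24 h, KO clone #1 had less Dnmt3a and less Tdg than wt cells, 2 of 9 called against 9.84% of all genes, with 0 of 9 higher against 6.25% and 2 of 9 lower against 3.6%. At 24 h the libraries labelled KO clone #2 had less Tdg and more Tet1 and Tet2, 3 of 9 against 37.3%, with 2 higher against 21.3% and 1 lower against 16%. For the libraries labelled KO clone #2 at 24 h, 3 of 9 is close to the share of all genes. Tdg was the only one of the 9 that was called in both KO lines at both times.

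**Figure D3:**
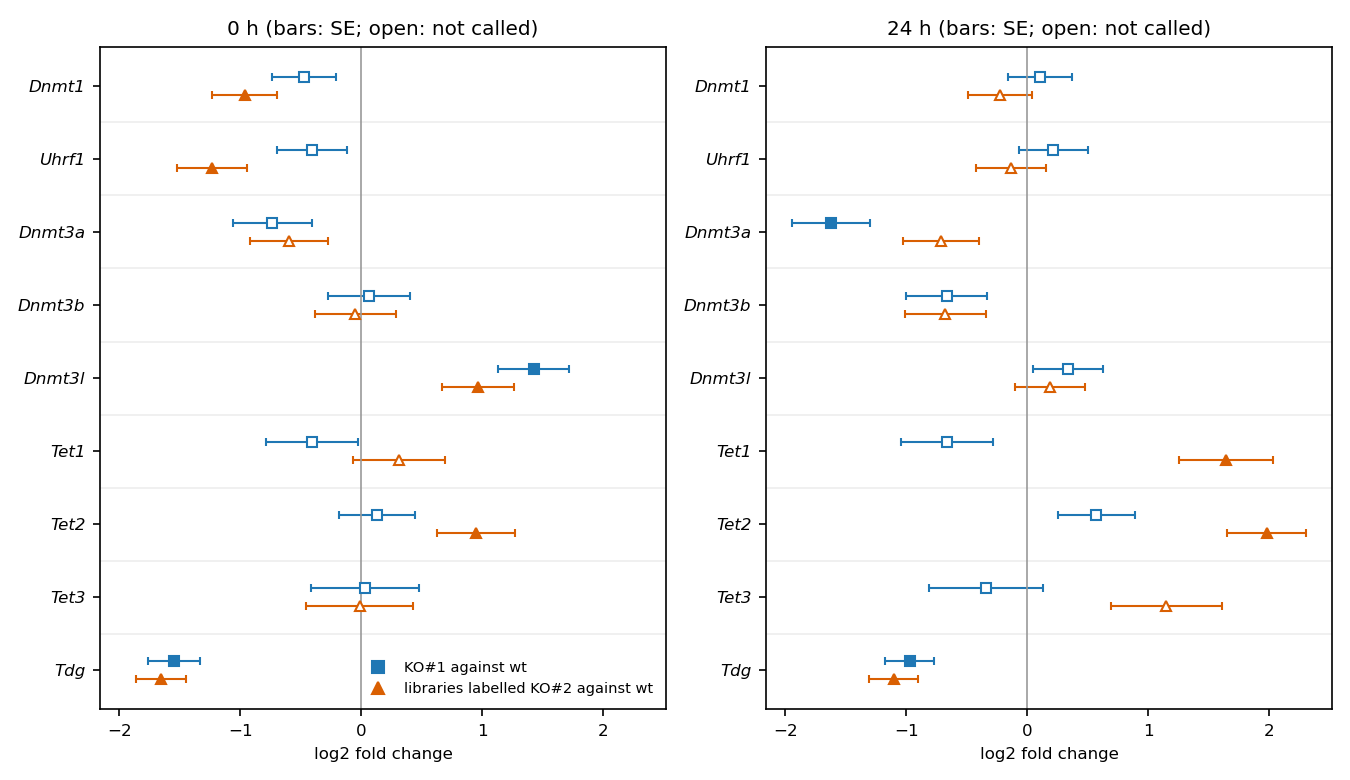
Log2 fold change of each gene in each KO line against wt cells, at 0 h and at 24 h, with its SE. Filled symbols passed edgeR's test at an adjusted p under 0.05 and open ones did not. Tdg lies between -1.65 and -0.97 in the 4 comparisons, and Tet1 at 24 h lies at -0.67 in KO clone #1 and at 1.65 in the libraries labelled KO clone #2.

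Dnmt1 (ENSMUSG00000004099, GRCm38 chr9:20907209-20959888, minus strand) encodes the maintenance methyltransferase. In wt cells it had 450.3, 283 and 279.6 CPM at 0 h and 237, 273 and 354 CPM at 24 h. The times overlapped, and the log2 fold change was -0.23 (SE 0.26, adjusted p = 0.485). Dnmt1 of KO clone #1 had 223, 279.6 and 227 CPM at 0 h and 230, 299 and 398 CPM at 24 h, and in the libraries labelled KO clone #2 it had 164, 158 and 198 CPM and then 278, 193 and 269.8 CPM. Neither KO line passed the test over time, with log2 fold changes of 0.35 (SE 0.26, adjusted p = 0.302) and 0.51 (SE 0.26, adjusted p = 0.166). At 0 h all 3 libraries labelled KO clone #2 lay below all 3 of wt, a log2 fold change of -0.96 (SE 0.27, adjusted p = 0.0103). That difference rests in part on the wt replicate with 450.3 CPM, since without it the value was -0.72 and the adjusted p 0.0579. Library totals in place of TMM factors gave -0.46 (adjusted p = 0.337). With offsets for length and GC content it was -0.46 (adjusted p = 0.0968), and the rise from 0 h to 24 h was then called in all 3 lines, at 0.66 in wt cells, 0.96 in KO clone #1 and 0.71 in the libraries labelled KO clone #2 (adjusted p = 0.012, 0.00121 and 0.0118). The direction of Dnmt1 over time in wt cells therefore turned with that choice.

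Uhrf1 (ENSMUSG00000001228, chr17:56303321-56323486, plus strand), the cofactor that recruits Dnmt1, had the highest level per kilobase of exon of the 9 genes in wt cells at 0 h. It was at 578, 459.5 and 478 CPM there and at 359, 393 and 563 CPM at 24 h, ranges that overlap, with a log2 fold change of -0.21 (SE 0.29, adjusted p = 0.569). KO clone #1 had 329.9, 391 and 425 CPM of Uhrf1 at 0 h and 379, 459 and 691 CPM at 24 h, and did not pass the test over time (0.42, SE 0.29, adjusted p = 0.256), although it did with the length and GC offsets (0.65, adjusted p = 0.0295). Uhrf1 stood in the libraries labelled KO clone #2 at 191, 185 and 268 CPM at 0 h, all below every wt library, and 481, 260.4 and 455 CPM at 24 h. Compared with wt cells before induction, Uhrf1 differed in them by a log2 fold change of -1.23 (SE 0.29, adjusted p = 0.00409), and -0.73 with the offsets (adjusted p = 0.024). With library totals in place of TMM factors it was -0.75 and lost its call (adjusted p = 0.134). Their rise over time was 0.89 (SE 0.29, adjusted p = 0.0301), and it lost its call without any 1 of 4 of the 6 libraries, with adjusted p between 0.095 and 0.113, and with library totals alone (0.85, adjusted p = 0.126). At 24 h neither KO line differed from wt cells in Dnmt1 or Uhrf1 beyond the test, with log2 fold changes between -0.22 and 0.22. With library totals alone, Uhrf1 of the libraries labelled KO clone #2 turned to 0.87 and was called (adjusted p = 0.0497), and Dnmt1 was at 0.80 (adjusted p = 0.051).

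The 3 genes of de novo methylation rose together over time, and the bases before their starts are given to show how unlike these promoters are in CpG content. Each run is the 250 bases before a RefSeq transcript start, on the gene's strand and in build GRCm38.p6, with every CG in capitals. The letters CG were counted, which read the same on both strands, in all 32851 windows of this length for 27025 genes, where the median was 6 and the quartiles were 2 and 16. Where a gene has several starts, the window shown is the one with the most CG of those with under 30 bases in an annotated exon. The windows are chr12:3806730-3806979 (plus strand) for Dnmt3a, chr2:153649199-153649448 (plus strand) for Dnmt3b and chr10:78049592-78049841 (plus strand) for Dnmt3l.
Dnmt3a: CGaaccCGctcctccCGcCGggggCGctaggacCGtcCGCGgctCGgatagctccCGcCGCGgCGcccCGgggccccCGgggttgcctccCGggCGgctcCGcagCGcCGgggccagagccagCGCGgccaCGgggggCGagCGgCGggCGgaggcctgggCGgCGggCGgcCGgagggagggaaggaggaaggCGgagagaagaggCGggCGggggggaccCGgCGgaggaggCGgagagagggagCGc
Dnmt3b: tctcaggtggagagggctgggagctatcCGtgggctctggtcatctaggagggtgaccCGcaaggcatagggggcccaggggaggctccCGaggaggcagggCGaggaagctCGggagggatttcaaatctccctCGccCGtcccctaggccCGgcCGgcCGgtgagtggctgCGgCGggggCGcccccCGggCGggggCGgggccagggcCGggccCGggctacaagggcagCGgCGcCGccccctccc
Dnmt3l: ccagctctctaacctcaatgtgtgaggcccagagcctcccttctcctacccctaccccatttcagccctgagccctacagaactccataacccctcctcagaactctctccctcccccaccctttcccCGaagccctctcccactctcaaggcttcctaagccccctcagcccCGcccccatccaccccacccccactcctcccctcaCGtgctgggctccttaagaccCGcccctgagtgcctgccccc
The Dnmt3a window holds 38 CG, a number reached by 1.88% of windows. The Dnmt3b window holds 21, a number reached by 16.3% of windows. The Dnmt3l window holds 4, a number reached by 62.2% of windows, and none of the 3 Dnmt3l windows has more than 5. The counts describe these windows only.

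Dnmt3a (ENSMUSG00000020661, chr12:3806007-3914443, plus strand), a de novo methyltransferase, had the largest rise over time of the 9 genes in all 3 lines. Wt cells had 43.6, 25.8 and 31.2 CPM at 0 h and 498, 519 and 658 CPM at 24 h, which is 16.8-fold (log2 fold change 4.07, SE 0.36, adjusted p = 3.14e-07). The gene went in KO clone #1 from 19.3, 24.0 and 16.9 CPM to 154, 189 and 199.8 CPM (log2 fold change 3.18, SE 0.35, adjusted p = 4.66e-06). In the libraries labelled KO clone #2 it went from 28.0, 17.98 and 20.0 CPM to 394, 164 and 465 CPM (3.95, SE 0.36, adjusted p = 9.61e-07). Times did not overlap in any line, and the offsets gave larger rises, 5.19 in wt cells, 4.10 in KO clone #1 and 4.35 in the libraries labelled KO clone #2. In bulk samples a smaller share of cells that have left the naive state and less RNA per cell cannot be told apart. At 24 h all 3 libraries of KO clone #1 lay below all of wt cells, at a log2 fold change of -1.62 (SE 0.32, adjusted p = 0.0028), a 3.08-fold lower level. This difference held its call and sign under every alternative, between -1.68 and -1.44. The libraries labelled KO clone #2 also lay below wt cells at 24 h without overlap, with replicate 2 far below replicates 1 and 3, and their log2 fold change of -0.71 did not pass the test (SE 0.32, adjusted p = 0.0845). Leaving out their replicate 3 gave -1.001 (adjusted p = 0.0318), leaving out their replicate 2 gave -0.38 (adjusted p = 0.33), and the length and GC offsets gave -1.23 (adjusted p = 0.00337), while library totals without TMM factors turned the value to 0.30. At 0 h the differences of both KO lines from wt cells, -0.74 and -0.60, did not pass the test (adjusted p = 0.213 and 0.148). Dnmt3aos, an antisense gene, shares 133 exon bases with Dnmt3a, and whether strand was used in the counting is not stated.

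Dnmt3b (ENSMUSG00000027478, chr2:153649450-153687730, plus strand), the other de novo methyltransferase, did not differ between wt cells and either KO line at 0 h beyond the spread of replicates. It was at 77.02, 63.3 and 77.6 CPM in wt cells, 70.9, 78.2 and 79.0 CPM in KO clone #1 and 62.1, 65.3 and 83.3 CPM in the libraries labelled KO clone #2. The log2 fold changes against wt cells were 0.07 (SE 0.34) and -0.05 (SE 0.34). At 24 h Dnmt3b had 566, 689.7 and 1129 CPM in wt cells, a rise of 10.9-fold (log2 fold change 3.45, SE 0.37, adjusted p = 2.08e-06). KO clone #1 reached 323, 424 and 758 CPM (2.72, SE 0.36, adjusted p = 2.87e-05) and the libraries labelled KO clone #2 reached 540, 295 and 658 CPM (2.83, SE 0.36, adjusted p = 2.81e-05). Both KO lines overlapped wt cells at 24 h, and the differences of -0.66 (SE 0.33, adjusted p = 0.258) and -0.67 (SE 0.33, adjusted p = 0.12) did not pass the test, although the latter did with the length and GC offsets (-0.70, adjusted p = 0.0469). Without wt replicate 3 the latter was -0.32 (adjusted p = 0.516), and with library totals alone it turned to 0.31 (adjusted p = 0.518).

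Libraries of wt cells and KO clone #1 with the same replicate number deviated together at 24 h, as their deviations from the group means correlated at 0.223 to 0.587 over genes. Within such pairs, Dnmt3b of KO clone #1 was at 0.571, 0.615 and 0.672 times its wt partner, lower in 3 of 3 pairs. With the replicate number as a block and these 2 groups alone in the fit, an alternative chosen after seeing the data, the log2 fold change of Dnmt3b was -0.67 and passed the test (adjusted p = 0.000235). That fit called 6 of 9 genes against 35.7% of all genes tested, and the calls it added were Dnmt3b, Dnmt3l (0.35, adjusted p = 0.0122), Tet1 (-0.61, adjusted p = 0.00112) and Tet2 (0.65, adjusted p = 0.00085). The replicate block over all 18 libraries called 2 of 9, Dnmt3a and Tdg, where 1686 of 16619 genes were called. With the length and GC offsets as well, it also called Dnmt3b (-0.75, adjusted p = 0.0182) and Tet2 (0.73, adjusted p = 0.0459), where 2668 of all genes were called.

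Dnmt3l (ENSMUSG00000000730, chr10:78041947-78063622, plus strand), the cofactor of the de novo enzymes, was higher in both KO lines than in wt cells before induction. It had 100.3, 66.4 and 99.5 CPM in wt cells at 0 h, 239, 272 and 203 CPM in KO clone #1 and 142, 168 and 210.5 CPM in the libraries labelled KO clone #2. No library of either KO line overlapped wt cells. The log2 fold change was 1.43 in KO clone #1 (SE 0.30, adjusted p = 0.00594), which is 2.69-fold, and 0.97 for those labelled KO clone #2 (SE 0.29, adjusted p = 0.0167), which is 1.95-fold. The latter lost its call without wt replicate 2 (0.79, adjusted p = 0.0669) or without KO clone #2 replicate 3 (0.80, adjusted p = 0.0684). At 24 h all 3 lines were high and overlapped. Wt cells had 479, 604 and 868 CPM, KO clone #1 had 595, 727 and 1145 CPM and the libraries labelled KO clone #2 had 781, 625 and 817 CPM. The latter were called higher than wt cells with library totals alone (1.199, adjusted p = 0.0101) and not otherwise (0.19, adjusted p = 0.637). The rise over time was 7.34-fold in wt cells (log2 fold change 2.88, SE 0.31, adjusted p = 2.48e-06), 3.45-fold in KO clone #1 (1.79, SE 0.30, adjusted p = 0.000235, and 1.06 with library totals alone, adjusted p = 0.0272) and 4.28-fold in the libraries labelled KO clone #2 (2.10, SE 0.30, adjusted p = 9.84e-05). Dnmt3l shares 67 exon bases with Aire on the opposite strand.

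Per kilobase of exon, counted over all annotated exons of a gene, Dnmt3l had the highest mean level of the de novo genes. This length exceeds that of the longest transcript unequally, at 16642 and 9685 bases for Dnmt3a, 5106 and 4320 for Dnmt3b and 2988 and 1822 for Dnmt3l. Levels of different genes can therefore be set against each other only roughly. In wt cells at 0 h the mean levels were 29.7 ± 6.47 CPM per kb for Dnmt3l, 14.2 ± 1.58 for Dnmt3b and 2.01 ± 0.549 for Dnmt3a (SD, n = 3 each). At 24 h they were 218 ± 66.5 for Dnmt3l, 156 ± 57.9 for Dnmt3b and 33.5 ± 5.24 for Dnmt3a, and the libraries of Dnmt3l and Dnmt3b overlapped. Ratios within a library do not depend on its scaling. The log2 ratio of Dnmt3l to Dnmt3b was 1.15, 0.84 and 1.13 in the wt libraries at 0 h, 2.53, 2.57 and 2.13 in KO clone #1 and 1.96, 2.13 and 2.11 in the libraries labelled KO clone #2. At 24 h it was 0.53, 0.58 and 0.39 in wt cells, 1.66, 1.55 and 1.37 in KO clone #1 and 1.31, 1.85 and 1.08 in the libraries labelled KO clone #2. All 6 KO libraries lay above all 3 wt libraries at each time. Of the summed level of Dnmt3a, Dnmt3b and Dnmt3l, the Dnmt3l share at 24 h was between 52.7% and 54.9% in wt cells, between 70.5% and 73.3% in KO clone #1 and between 63.5% and 75.5% in the libraries labelled KO clone #2. Dnmt3b exceeded Dnmt3a in every library, with log2 ratios at 24 h of 1.89, 2.11 and 2.48 in wt cells against 2.77, 2.87 and 3.63 in KO clone #1, which did not overlap, and 2.16, 2.56 and 2.21 in the libraries labelled KO clone #2, which overlapped wt cells.

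**Figure D4:**
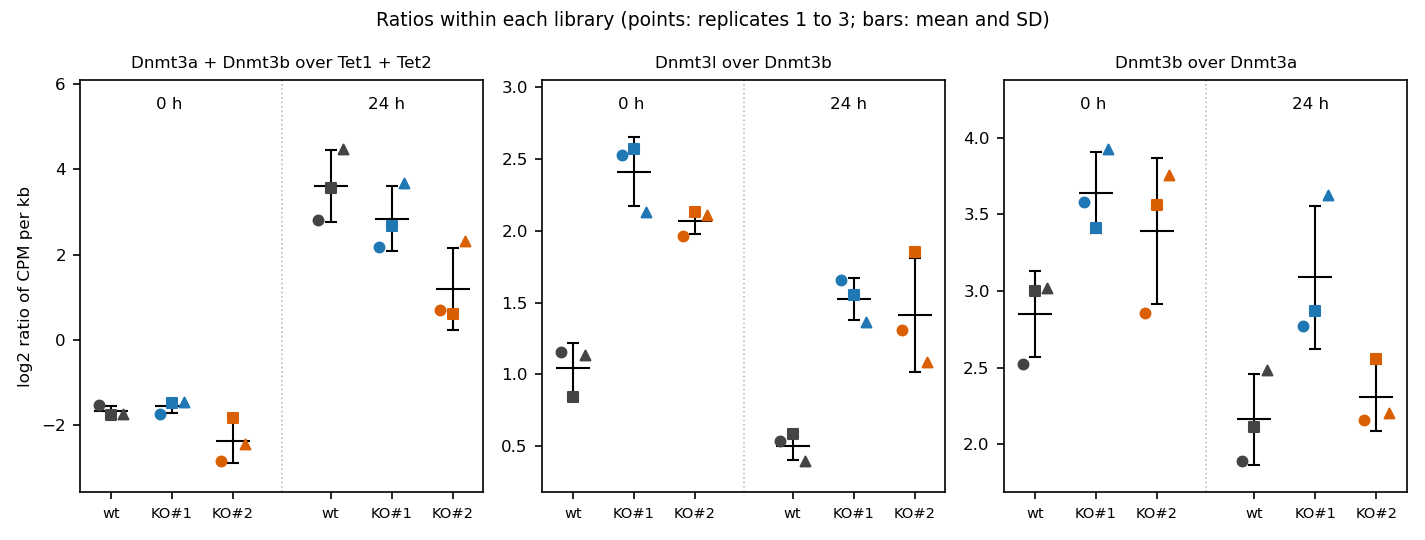
Log2 ratios of CPM per kb within each library, by line and time, for Dnmt3a plus Dnmt3b over Tet1 plus Tet2, for Dnmt3l over Dnmt3b and for Dnmt3b over Dnmt3a. Points are the 3 libraries of a group and bars give the mean and SD. The ratio of Dnmt3l to Dnmt3b lies between 0.39 and 0.58 in wt cells at 24 h and between 1.08 and 1.85 in the KO libraries.

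The Tet genes fell during induction of wt cells. Per kilobase of exon, Tet1 overlapped Tet2 in wt cells at 0 h and lay above it at 24 h. Tet2 has 16870 exon bases and 9179 in its longest transcript, against 15457 and 14369 for Tet1, so this order can depend on the length used. Tet1 (ENSMUSG00000047146, chr10:62804570-62908996, minus strand) had 393, 361 and 475 CPM in wt cells at 0 h and 195, 125 and 127 CPM at 24 h (log2 fold change -1.46, SE 0.39, adjusted p = 0.00469, and -0.95 with the offsets, adjusted p = 0.00756). KO clone #1 went from 341, 295 and 293 CPM to 99.98, 90.5 and 91.1 CPM (-1.72, SE 0.39, adjusted p = 0.00234, and -1.08 with the offsets, adjusted p = 0.00432). Times did not overlap in either line. The libraries labelled KO clone #2 were widely spread, with 626, 213 and 688 CPM at 0 h and 765, 343 and 290.1 CPM at 24 h, and overlapped between times (-0.13, SE 0.38, adjusted p = 0.837).

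Against wt cells at 24 h, all 3 libraries labelled KO clone #2 had more Tet1, with a log2 fold change of 1.65 (SE 0.39, adjusted p = 0.00326), which is 3.13-fold. The median of all genes with a longest transcript over 7 kb was 0.94 in this comparison, and that of genes with under 46% GC was 0.53. The longest transcript of Tet1 has 14369 bases and 43.7% GC. With offsets for both, the log2 fold change of Tet1 was 0.55 and did not pass the test (adjusted p = 0.12). It was 1.09 without KO clone #2 replicate 1 (adjusted p = 0.0323) and 2.69 with library totals alone (adjusted p = 4.37e-05). Tet1 of KO clone #1 at 24 h was below all wt libraries, at -0.67 (SE 0.38, adjusted p = 0.338), and was called only in the fits of these 2 groups alone with the replicate block, given above without offsets. At 0 h neither KO line passed the test, at -0.40 in KO clone #1 and 0.31 in the libraries labelled KO clone #2 (adjusted p = 0.606 and 0.527), and the latter turned to -0.65 with the offsets and the replicate block together (adjusted p = 0.0448).

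Tet2 (ENSMUSG00000040943, chr3:133463679-133545139, minus strand) had the highest mean level per kilobase of the Tet genes in both KO lines at 0 h. Its window before the RefSeq start, chr3:133544391-133544640 on the minus strand, is shown because it was the richest in CG of all windows of the 9 genes.
Tet2: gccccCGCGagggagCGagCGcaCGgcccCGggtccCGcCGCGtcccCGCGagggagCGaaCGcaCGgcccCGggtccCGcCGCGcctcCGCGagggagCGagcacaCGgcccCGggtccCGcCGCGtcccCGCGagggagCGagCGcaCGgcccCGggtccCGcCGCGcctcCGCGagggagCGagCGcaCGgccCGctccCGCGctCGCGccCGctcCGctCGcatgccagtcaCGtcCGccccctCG
It holds 51 CG, a number reached by 0.067% of all windows.

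In wt cells Tet2 went from 435, 409.9 and 443 CPM at 0 h to 127, 99.5 and 57.8 CPM at 24 h, a fall to 0.221 times the level (log2 fold change -2.18, SE 0.33, adjusted p = 5.42e-05). KO clone #1 went from 483, 479 and 448 CPM to 161, 151 and 111 CPM (-1.74, SE 0.32, adjusted p = 0.000572). The libraries labelled KO clone #2 went from 1012, 607 and 869 CPM to 523, 383 and 218 CPM (-1.15, SE 0.32, adjusted p = 0.0132), a fall that lost its call without replicate 1 of 0 h or replicate 3 of 24 h, at values between -0.98 and -0.87 (adjusted p = 0.0649 to 0.0785). All 3 lines fell without overlap of times. In the libraries labelled KO clone #2, Tet2 lay above wt cells at both times without overlap. The log2 fold change was 0.95 at 0 h (SE 0.32, adjusted p = 0.0268) and 1.98 at 24 h (SE 0.33, adjusted p = 0.000205), which is 3.95-fold. The value at 24 h was 1.19 with the length and GC offsets and stayed called (adjusted p = 0.0021), and it was 3.08 with library totals alone (adjusted p = 1.79e-06). The value at 0 h was 0.42 with the offsets (adjusted p = 0.235) and lost its call without any 1 of 5 of the 6 libraries (0.78 to 0.97, adjusted p = 0.062 to 0.0973). Differences of KO clone #1 from wt cells, 0.13 and 0.57, did not pass the test (adjusted p = 0.861 and 0.316), although Tet2 was higher than in the same-numbered wt library in 3 of 3 pairs at 24 h, at 1.27, 1.52 and 1.92 times.

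Tet3 (ENSMUSG00000034832, chr6:83362373-83459084, minus strand) had the lowest mean level per kilobase of the 9 genes in wt cells at both times, overlapping Dnmt3a at 0 h. It had 36.7, 11.8 and 25.8 CPM in wt cells at 0 h and 5.45, 3.70 and 5.68 CPM at 24 h, where it rests on 37 to 93 counts (log2 fold change -2.29, SE 0.47, adjusted p = 0.000765). KO clone #1 had 32.4, 25.9 and 16.9 CPM and then 3.97, 2.96 and 4.79 CPM (-2.66, SE 0.48, adjusted p = 0.000426). Both falls were smaller with the offsets, -0.99 and -1.64, and stayed called (adjusted p = 0.00735 and 0.000247). The libraries labelled KO clone #2 had 36.0, 13.1 and 23.4 CPM and then 18.8, 8.47 and 6.03 CPM, which overlapped (-1.13, SE 0.44, adjusted p = 0.0678). With the offsets this fall was -0.78 and was called (adjusted p = 0.03), and with 1 of the 6 libraries left out it lay between -1.74 and -0.72 (adjusted p = 0.0115 to 0.328). At 24 h they were above wt cells without overlap, at 1.15 (SE 0.46, adjusted p = 0.0546), a value just outside the threshold that DESeq2 (1.15, adjusted p = 0.039) and 6 other alternatives called, one of them without KO clone #2 replicate 3 (1.45, adjusted p = 0.0231). Without KO clone #2 replicate 1 it was 0.54 (adjusted p = 0.381). With the offsets it was 0.48 (adjusted p = 0.185). At 0 h all 3 lines overlapped, with differences of 0.04 and -0.01.

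Marker genes of other cell states also differed from wt cells at 24 h in the libraries labelled KO clone #2. In that comparison 21.3% of all genes were called higher and 16% lower. At 24 h, 4 of 5 naive markers were higher in these libraries than in wt cells, with sums of 187 to 474 CPM against 149 to 171 CPM. Of the 8 fibroblast markers 6 were higher, with sums of 70.9 to 219 CPM against 19.0 to 34.5 CPM, and all 8 had counts in every library of 24 h. All 3 primitive endoderm markers were higher too, with sums of 6.46 to 12.7 CPM against 0.802 to 1.23 CPM. In KO clone #1 at 24 h, 3 of 5 naive markers were higher than in wt cells, and 1 of 8 fibroblast markers was higher (Acta2) and 1 lower (Dcn). There 1 of 3 primitive endoderm markers was higher (Gata6). Of 4 EpiLC markers 2 were lower, Sox3 and Pou3f1, as they were in the libraries labelled KO clone #2. Of all genes, 6.25% were called higher and 3.6% lower in KO clone #1 at 24 h. Of the general pluripotency markers, Sox2 was higher (0.83, adjusted p = 0.0214) and Pou5f1 lower (-0.76, adjusted p = 0.0226) in the libraries labelled KO clone #2 at 24 h. Eomes, a primitive streak marker, was higher than in wt cells in both KO lines at 24 h (2.26 and 2.45, adjusted p = 0.000361 and 7.38e-05).

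Markers also differed at 0 h, where the libraries labelled KO clone #2 had less Dnmt1 and Uhrf1 and more Tet2 than wt cells. Of the 8 fibroblast markers 4 were higher in them and 0 lower, against 21.5% and 16.6% of all genes. Their sums were 331 to 897 CPM against 109.9 to 389.7 CPM in wt cells. The pluripotency factors Pou5f1 (-1.12), Klf4 (-1.09) and Esrrb (-1.11) were lower (adjusted p = 0.00284, 0.0486 and 0.0154), and Zfp42 was higher. Of the 3 primitive endoderm markers, Gata6 alone was called, and it was higher (3.37, adjusted p = 0.00568). The sums of that list were low and overlapped, at 1.29 to 4.38 CPM against 2.62 to 3.67 CPM in wt cells. Of the EpiLC markers Otx2 was higher in both KO lines at 0 h, the time at which both had more Dnmt3l, with 6.25, 8.76 and 32.7 CPM in KO clone #1 (2.07, adjusted p = 0.0207) and 16.1, 10.3 and 14.8 CPM in the libraries labelled KO clone #2 (1.82, adjusted p = 0.0115) against 1.31, 4.59 and 4.75 CPM in wt cells. Pou3f1 was lower in both, Sox3 lower in KO clone #1, Eomes lower in the libraries labelled KO clone #2, and Zfp42 was higher in KO clone #1 too. Xist, the RNA that coats the inactive X chromosome, was at 85.2, 47.7 and 39.2 CPM in these libraries at 0 h, against 3.61, 3.21 and 4.17 CPM in wt cells, and at 37.0, 40.9 and 28.7 CPM at 24 h, against 5.16, 2.00 and 1.67 CPM. Ddx3y, a gene of the Y chromosome, was also higher in them, at 1.42, 2.65 and 4.22 CPM against 0.328, 0.459 and 0.583 CPM at 0 h. In KO clone #1, 0 of the 4 sex chromosome genes tested were called against wt at either time. The part of these cell states and of sex chromosome expression in the results on the 9 genes was not tested.

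**Figure D5:**
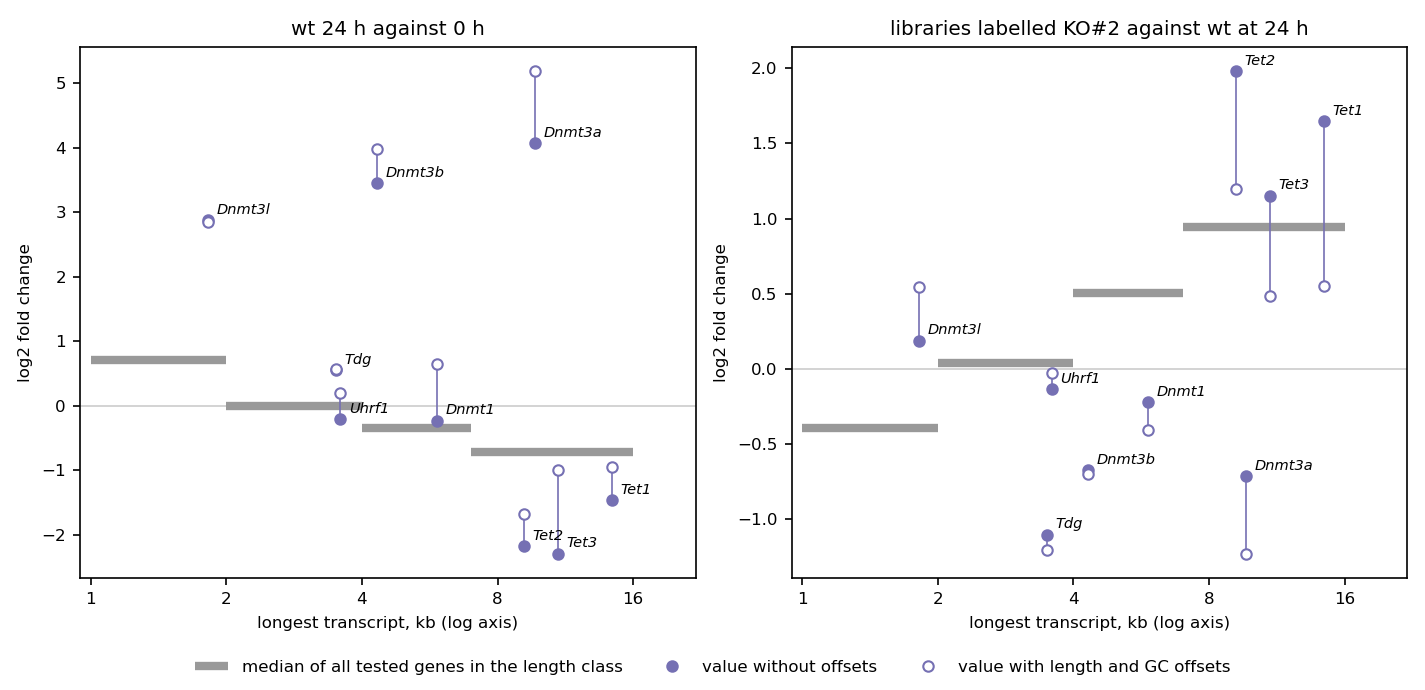
Log2 fold change against the length of the longest transcript, on a log axis in kb, for 24 h against 0 h in wt cells and for the libraries labelled KO clone #2 against wt cells at 24 h. Grey bars are medians of all tested genes under 2 kb, from 2 to 4, from 4 to 7 and over 7 kb, with the outer classes drawn to 1 and 16 kb, and circles are the 9 genes without (filled) and with (open) offsets for length and GC content. Tet1 moves from 1.65 to 0.55 in the second comparison, and Dnmt3a from 4.07 to 5.19 in the first.

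Tet transcripts exceeded those of the de novo methyltransferases in every library at 0 h, and the reverse held in every library at 24 h. The log2 ratio of Dnmt3a plus Dnmt3b to Tet1 plus Tet2, per kilobase, was -1.53, -1.77 and -1.74 in wt cells at 0 h and 2.80, 3.57 and 4.49 at 24 h. In KO clone #1 it went from -1.75, -1.50 and -1.46 to 2.18, 2.67 and 3.68, ranges that overlap wt cells at both times, although at 24 h each was lower than the same-numbered wt library. In the libraries labelled KO clone #2 it went from -2.86, -1.84 and -2.45 to 0.68, 0.59 and 2.31, below every wt library at both times. These ratios carry no offsets for length and GC content. With offsets, the log2 fold changes of these libraries against wt at 0 h were -0.39 for Dnmt3a, 0.38 for Dnmt3b, -0.61 for Tet1 and 0.42 for Tet2, which do not all point to a lower ratio, so that its direction at 0 h is not established. At 24 h they were -1.23, -0.70, 0.55 and 1.19, all toward a lower ratio.

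Tdg (ENSMUSG00000034674, chr10:82629828-82650799, plus strand), the glycosylase that removes oxidized methylcytosine, was lower in both KO lines than in wt cells at both times. Its window before the RefSeq start, chr10:82629588-82629837 on the plus strand, is shown because Tdg was the member called in all 4 comparisons with wt cells.
Tdg: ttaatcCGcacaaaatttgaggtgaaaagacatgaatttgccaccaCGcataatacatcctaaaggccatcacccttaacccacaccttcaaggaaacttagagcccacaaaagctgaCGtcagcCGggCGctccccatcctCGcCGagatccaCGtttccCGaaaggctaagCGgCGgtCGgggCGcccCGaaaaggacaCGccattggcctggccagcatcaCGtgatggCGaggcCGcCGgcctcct
It holds 19 CG, a number reached by 19.7% of all windows.

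At 0 h Tdg had 53.4, 49.5 and 51.8 CPM in wt cells, 16.9, 17.1 and 18.8 CPM in KO clone #1 and 17.5, 13.9 and 17.7 CPM in the libraries labelled KO clone #2. Replicates were close, and the highest KO library, at 18.8 CPM, was far below the lowest wt library, at 49.5 CPM. The log2 fold change was -1.55 in KO clone #1 (SE 0.21, adjusted p = 0.000123) and -1.65 for those labelled KO clone #2 (SE 0.21, adjusted p = 3.25e-05), levels 2.92-fold and 3.15-fold lower. At 24 h the gene had 70.9, 66.6 and 89.3 CPM in wt cells, 32.2, 37.3 and 46.3 CPM in KO clone #1 and 35.4, 28.3 and 42.0 CPM in the libraries labelled KO clone #2. The groups again did not overlap, at -0.97 in KO clone #1 (SE 0.20, adjusted p = 0.00426) and -1.10 for those labelled KO clone #2 (SE 0.20, adjusted p = 0.000515), levels 1.96-fold and 2.15-fold lower. The differences at 0 h held their call and sign under every alternative, between -1.62 and -1.40 and between -1.72 and -1.19. Those at 24 h lost their call with library totals in place of TMM factors, at -0.999 (adjusted p = 0.0678) and -0.09 (adjusted p = 0.813). Tdg rose over time in all 3 lines, by 1.47-fold in wt cells (log2 fold change 0.55, SE 0.20, adjusted p = 0.0308), 2.19-fold in KO clone #1 (1.13, SE 0.21, adjusted p = 0.00052) and 2.15-fold in the libraries labelled KO clone #2 (1.10, SE 0.21, adjusted p = 0.000817). The rise in wt cells lost its call without any 1 of 5 of the 6 libraries (0.36 to 0.58, adjusted p = 0.0559 to 0.188) and without the filter on low counts (0.57, adjusted p = 0.135), and became -0.035 with library totals alone. With library totals alone the rise in KO clone #1 was 0.36 and also lost its call (adjusted p = 0.385). Tdg shares 367 exon bases with Glt8d2 on the opposite strand.

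Whether the response to induction differed between lines was tested as an interaction. In edgeR 0 of 9 genes were called for KO clone #1, against 0.391% of all genes tested, and 0 of 9 for the libraries labelled KO clone #2, against 1.47%. At an unadjusted p under 0.05 there were 1 of 9 (10.1% of all genes) and 3 of 9 (23.6%), and DESeq2 called 0 (1.66% of all genes) and 1 (8.48%). The 1 gene in KO clone #1 was Dnmt3l, whose response differed from that of wt cells by -1.09 (edgeR, SE 0.41, adjusted p = 0.335). In the libraries labelled KO clone #2 they were Uhrf1 (1.10, SE 0.41, adjusted p = 0.133), Tet1 (1.33, SE 0.54, adjusted p = 0.156) and Tet2 (1.03, SE 0.45, adjusted p = 0.18), each with a higher value than in wt cells, and Uhrf1 was the one that DESeq2 called (1.15, adjusted p = 0.0395). The responses of Dnmt3a differed by -0.89 (SE 0.45, adjusted p = 0.539) and -0.11 (SE 0.45, adjusted p = 0.898). The standard errors of the differences in response were between 0.29 and 0.65.

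Of 44 other genes of the pathway, 43 were in the count table. From 0 h to 24 h in wt cells, 15 of the 43 were higher and 15 lower, which is 30 called against 50.7% of all genes tested, with a median log2 fold change of -0.027 against 0.030 over all genes. In KO clone #1, 6 were higher and 10 lower at 24 h (20.1% and 20.6% of all genes), and in the libraries labelled KO clone #2 these were 10 and 7 (12.7% and 13.3%). Against wt cells, KO clone #1 had 1 higher and 3 lower at 0 h (3.99% and 2.68% of all genes) and 4 higher and 5 lower at 24 h (6.25% and 3.6%). The libraries labelled KO clone #2 had 8 higher and 13 lower at 0 h (21.5% and 16.6%) and 6 higher and 8 lower at 24 h (21.3% and 16%). Of the maintenance partners, 4 of 6 were higher and 0 lower in wt cells, against 26% and 24.7% of all genes. These were Hells (2.40, SE 0.45), a remodeler needed for methylation of repeats, Pcna (1.46, SE 0.45), the sliding clamp of replication, Cdca7 (1.01, SE 0.25), the partner of Hells, and Usp7 (0.59, SE 0.20), a deubiquitinase of the Dnmt1 complex. In KO clone #1 over time, 3 of 6 were higher (Hells, Pcna and Cdca7) and 2 lower (Uhrf2 and Dppa3), against 20.1% and 20.6% of all genes. In the libraries labelled KO clone #2 the same 3 were higher and Dppa3 was lower, against 12.7% and 13.3% of all genes. Dppa3, which keeps Uhrf1 away from chromatin, was at 2.62, 3.21 and 1.42 CPM in wt cells at 0 h, 5.34, 4.59 and 21.4 CPM in KO clone #1 and 10.1, 14.1 and 4.36 CPM in the libraries labelled KO clone #2. It was higher in both, at 2.17 (SE 0.55, adjusted p = 0.0216) and 2.00 (SE 0.55, adjusted p = 0.00949).

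Among the genes that guard or limit de novo methylation, Prdm14, a naive factor that represses Dnmt3 genes, fell the furthest. It went from 41.6, 33.3 and 52.9 CPM to 0.645, 0.701 and 0.679 CPM in wt cells (log2 fold change -5.97, SE 0.58, adjusted p = 8.67e-07). At 24 h it was at 3.53, 3.78 and 2.55 CPM in KO clone #1 and at 2.25, 7.04 and 1.91 CPM in the libraries labelled KO clone #2. Both were above wt cells without overlap, at 2.26 (SE 0.57, adjusted p = 0.0152) and 2.47 (SE 0.56, adjusted p = 0.00237). Of the same list of 5, Zfp57, which protects imprints, fell in wt cells (-0.96, SE 0.22) and Zfp445 rose (0.78, SE 0.25). Setdb1, an H3K9 methyltransferase, was lower than wt in both KO lines at both times, at -0.88 and -0.97 at 0 h and at -0.87 and -0.76 at 24 h (adjusted p between 0.0033 and 0.0209). Of the 3 Tet partners, Cxxc5 fell over time in wt cells (-2.43, SE 0.35) and was lower than wt in both KO lines at 0 h (-1.53 and -1.90). Cxxc4 was called higher at 24 h in wt cells, where 0 h held 1 count over 3 libraries, and did not exceed 1.17 CPM in any library, close to the smallest level that could be seen.

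The base excision repair and Gadd45 genes were mixed in wt cells, with 5 of 14 higher and 4 lower, against 26% and 24.7% of all genes. Gadd45g rose the most (4.28, SE 0.48), from 4.59, 2.66 and 1.17 CPM to 41.8, 51.6 and 51.0 CPM. At 24 h it was at 11.6, 12.6 and 16.8 CPM in KO clone #1 and 14.9, 13.0 and 26.8 CPM in the libraries labelled KO clone #2, lower than wt in both (-1.81, SE 0.40, adjusted p = 0.00643, and -1.40, SE 0.40, adjusted p = 0.0104). Apex1 (1.62), Gadd45a (1.30), Ung (0.67) and Lig3 (0.64) also rose in wt cells, and Neil2 (-2.35), Gadd45b (-1.81), Neil1 (-0.96) and Smug1 (-0.85) fell. Neil2, a glycosylase, was lower than wt in both KO lines at 0 h (-2.04 and -1.64), where libraries overlapped. Of the genes of the methyl-CpG-binding domain and Kaiso-like zinc finger families, 7 of 9 fell and 1 rose in wt cells, and of the methyl donor cycle 3 of 5 rose and 1 fell, against the same shares of all genes.

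For each of the 9 genes, the genes with the most similar course over the 18 libraries were looked up among 10138 genes with an average log2 CPM of at least 2. Likeness was the root mean square difference of log2 CPM after each gene was centred on its own mean. Nearest to Dnmt3a were Pim2 (0.40), Dnmt3b (0.61) and Myc (0.61), where Dnmt3a itself had an SD of 2.01 over the libraries. Nearest to Uhrf1 was Dnmt1 (0.19, SD of Uhrf1 0.52), followed by Gtpbp1 and Hnrnpl, and nearest to Dnmt1 were Rab11b, Rrp1b and Lmnb2 (0.14 to 0.16, SD 0.40). Dnmt3b was closest to Sall2, Plk3 and Twf2 (0.41 to 0.42, SD 1.57), and Dnmt3l to Snrpn, Basp1 and Tmem79 (0.30 to 0.45, SD 1.27). Tet1 was closest to R3hdm1, Cdc73 and Nfib (0.18 to 0.27, SD 0.99), Tet2 to Fcho2, Bmpr2 and Qk (0.24 to 0.36, SD 1.16) and Tet3 to Fryl, Gsk3b and Phlpp1 (0.31, SD 1.22). No Tet gene was among the 3 nearest of another. For Tdg they were Slc4a5, F2rl1 and Ccdc137 (0.28 to 0.34, SD 0.82).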

How the data were processed

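RNA was sequenced by the study from 18 libraries, 3 in each of 6 groups, as stranded total RNA. Reads were trimmed with Trim Galore and aligned with STAR to GRCm38, and duplicates were marked with Picard. The authors deposited whole-number counts per gene, not normalized. The annotation release and whether counting used strand are not given in the sources used here. The 9 members and the gene lists were chosen with earlier results of these data known. All members were named, pathway genes were named where called in wt cells over time or in both KO lines against wt at one time with one sign, and the 3 most similar genes were named for each member. Of the pathway genes, 2 that met this rule are counted in their lists and not reported here by name.

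Counts were analysed with edgeR 4.0.16 in R 4.3.3. Genes were filtered with filterByExpr (minimum count 10), libraries were scaled by TMM, and all 6 groups shared one quasi-likelihood fit without a block. SE is the log2 fold change divided by the root of the F statistic. Exon lengths came from GENCODE M21, which held 45143 of 45706 gene identifiers. No 2 libraries held identical counts.

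Alternatives were library totals without TMM, RLE factors, protein-coding totals, other filters, the groups compared alone, a replicate block, each library left out, stricter thresholds and DESeq2 1.42.0. Chosen after seeing the data were the block with 2 groups alone and offsets by natural splines (5 degrees of freedom) on transcript length and GC content, known for 99.4% of genes tested. Same-numbered libraries deviated together in 1 of 15 pairs of groups, wt and KO clone #1 at 24 h, where every correlation was over 0.1 (0.223 to 0.587), and this pairing comes from the data, not from the labels.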

Additional observations from a re-analysis of the deposited data

Results flagged for a closer look

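Tet1 was on opposite sides of wt cells in the KO lines at 24 h. All 3 libraries of KO clone #1 lay below every wt library, a difference that did not pass the test (log2 fold change -0.67, edgeR, adjusted p = 0.338). All 3 libraries labelled KO clone #2 lay above every wt library (1.65, adjusted p = 0.00326). With the length and GC offsets the latter was 0.55 and lost its call (adjusted p = 0.12). Zfp445, a zinc finger protein that protects imprints, had the same order at 24 h, with 20.8, 19.4 and 20.1 CPM in KO clone #1, 31.8, 31.8 and 34.4 CPM in wt cells and 46.3, 39.2 and 51.8 CPM in the libraries labelled KO clone #2. Its log2 fold changes were -0.70 (edgeR, SE 0.25, adjusted p = 0.0853) and 0.48 (SE 0.25, adjusted p = 0.127), and neither passed the test. The longest transcript of Zfp445 has 6189 bases and 43.3% GC, and no offsets were applied to its values. For the libraries labelled KO clone #2 against wt cells at 24 h, genes of 4 to 7 kb had a median of 0.50. Genes with under 46% GC had a median of 0.53 there. The difference between the KO lines was not tested for either gene, and both lines were compared with the same wt libraries.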

How the results depend on the processing

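Of 32 calls over the 9 genes and 9 comparisons, 21 kept call and sign under every alternative. Among 1422 alternative values of the members, 32 lost a call, 38 gained one and 5 changed sign with a call in one of the fits. The 5 were Dnmt1 over time in wt cells at 0.66 with length and GC offsets and 0.65 with offsets and block, Tdg over time in wt cells at -0.035 and Uhrf1 in the libraries labelled KO clone #2 at 24 h at 0.87 with library totals alone, and Tet1 in the libraries labelled KO clone #2 at 0 h at -0.65 with offsets and block. A further 47 values changed sign without a call in either fit. The cause was not tested.

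For the libraries labelled KO clone #2 at 0 h, the 5 members called became 3 with library totals alone, 3 with the offsets, 2 at an adjusted p under 0.01, 2 where the log2 change also had to reach 1, and 3 to 5 with 1 library left out (3 without wt replicate 1, wt replicate 2 or KO clone #2 replicate 3). Of all 16619 genes tested, 6326 were called there, 5507 with library totals alone, 4639 with the offsets and 4411 to 5631 with 1 library left out. Calls over all genes under the stricter thresholds were not counted. At 24 h their 3 became 5 with library totals alone and 3 to 5 with 1 library left out, 5 without KO clone #2 replicate 3. Over all 16619 genes the calls at 24 h numbered 6198, and 10203 with library totals alone. With 1 library left out they were 4570 to 5943, the latter without KO clone #2 replicate 3. Over all genes, 1636 were called for KO clone #1 at 24 h and 1088 with library totals alone. The block in the 2 groups alone called 5934 of all genes there, offsets and block 2668, and offsets and block in the 2 groups alone 6764. For KO clone #1 at 24 h, the 2 called became 1 with library totals alone, 1 with the fold limit, 6 with the replicate block in the 2 groups alone, 4 with offsets and block, and 6 with offsets and block in the 2 groups alone. The replicate block over all libraries gave 2 there and 7, 7, 7, 2, 5, 4, 0 and 0 in the other comparisons, in the order over time (wt, KO clone #1, KO clone #2), against wt at 0 h (KO clone #1, KO clone #2), KO clone #2 at 24 h and both responses. Of all genes, that block called 1686 for KO clone #1 at 24 h and 8643, 6933, 4520, 1127, 6470, 6438, 50 and 446 in the same order. It added Tet3 in the libraries labelled KO clone #2, over time (-1.12, adjusted p = 0.0228) and against wt at 24 h (1.08, adjusted p = 0.0254). The 0 called for the response of KO clone #2 became 2 with offsets and block (Dnmt3b and Tet1) and 1 with DESeq2 (Uhrf1). Over all genes, offsets and block called 959 and DESeq2 1409, against 244 in the main fit.

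Library totals alone moved the median over all genes, on the log2 scale, by -0.61 over time in wt cells, -0.79 in KO clone #1, and by 0.45 and 1.04 for the libraries labelled KO clone #2 against wt at 0 h and 24 h. Of all genes called over time in wt cells, 4322 of 8431 were higher, and 1587 of 7432 with library totals alone. For the libraries labelled KO clone #2 these were 3569 of 6326 and 4973 of 5507 at 0 h, and 3538 of 6198 and 9671 of 10203 at 24 h. Genes called in KO clone #1 against wt at 0 h numbered 1108, or 465 with the groups compared alone, and at 24 h 1636, or 5934 with the block in the 2 groups alone. Calls for the responses numbered 65 and 244, or 276 and 1409 with DESeq2. They were 4 and 801 with library totals alone and 307 and 1717 without the filter on low counts. With 1 library left out they lay between 6 and 46 and between 51 and 561. Tet3 rests on as few as 29 counts, the fewest of the 9 genes, which limits its precision.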

Other observations

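Of the 9 genes of the methyl-CpG-binding domain and Kaiso-like zinc finger families, not all of which bind methylated DNA, 7 fell in wt cells during induction, against 24.7% of all genes tested. Among those lower at 24 h were Mbd6 (log2 fold change -4.51, SE 0.78), Zbtb4 (-3.74, SE 0.47), Mbd5 (-1.84, SE 0.35), Zbtb38 (-1.28, SE 0.22), Mbd1 (-0.86, SE 0.29) and Mbd2 (-0.63, SE 0.24), and Mbd3, a subunit of the NuRD complex, was higher (0.74, SE 0.29), with edgeR adjusted p between 1e-05 and 0.0406. The zinc finger genes Zbtb4 and Zbtb38 were higher at 24 h in both KO lines than in wt cells. Zbtb38 was at 12.0, 12.5 and 16.6 CPM in wt cells, 20.4, 25.4 and 27.2 CPM in KO clone #1 (0.83, SE 0.22, adjusted p = 0.0185) and 32.7, 38.0 and 27.4 CPM in the libraries labelled KO clone #2 (1.25, SE 0.22, adjusted p = 0.000295). Zbtb4 was at 0.469, 0.100 and 0.432 CPM in wt cells, 0.882, 1.43 and 2.11 CPM in KO clone #1 (2.03, SE 0.48, adjusted p = 0.00986) and 2.04, 1.74 and 0.868 CPM in the libraries labelled KO clone #2 (2.09, SE 0.47, adjusted p = 0.00225), levels close to the smallest that could be seen.

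Genes that make the methyl donor or clear its product rose in wt cells. They were Mat2a (1.35, SE 0.46) and Mat2b (1.15, SE 0.37), the methionine adenosyltransferase subunits, and Ahcy (1.06, SE 0.25), which hydrolyses S-adenosylhomocysteine. Ahcy was lower than wt in both KO lines at 24 h without overlap, with 344, 423 and 495 CPM in wt cells, 154, 201 and 237 CPM in KO clone #1 (-1.09, SE 0.25, adjusted p = 0.00809) and 78.9, 61.6 and 103.5 CPM in the libraries labelled KO clone #2 (-2.37, SE 0.26, adjusted p = 6.11e-06).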
